A study of Arabidopsis thaliana with 12 samples.

Results

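Glutathione S-transferase genes were taken as the loci whose deposited annotation names a glutathione S-transferase. The selection rule left out 5 such loci, all of the phi class (*GSTF6*, *GSTF9*, *GSTF10*, *GSTF11* and *GSTF12*), which left 52 of 33323 loci. By their annotation they fell into 28 tau, 8 phi, 3 theta, 2 zeta, 1 lambda and 1 microsomal genes, 7 described only as family proteins, and 2 translation elongation factors of the EF1B type (AT1G30230 and AT5G12110). Those 2 met the rule because their annotation mentions a domain of the glutathione S-transferase kind, so the rule gathers a wording and not only enzymes. Their RNA was measured by sequencing in whole rosettes, roots excluded, of *Arabidopsis thaliana* plants aged 25 days, in 4 genotypes with 3 libraries each. The jazD cdk8-1 line joins the mutations of the next pair of lines. The jazD line carries mutations in the genes of 10 JAZ repressors (*JAZ1* to *JAZ7*, *JAZ9*, *JAZ10* and *JAZ13*). The cdk8-1 line is mutant in *CDK8* alone, which encodes the kinase of the Mediator complex. Col-0 is the wild type. About 10 rosettes were pooled for every library and the genotypes shared a tray, so a replicate is a pool of plants and the p-values measure the spread between pools. By its title, the series asks how CDK8 affects defence genes in jazD.

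Glutathione S-transferases join the tripeptide glutathione to reactive or foreign molecules, or use it to reduce peroxides and other oxidised compounds. The conjugates are carried into the vacuole and taken apart there. Plants have large tau and phi classes, much of them in tandem gene arrays, and many of these genes are known to respond to stress, pathogens and oxylipins. JAZ proteins hold back transcription factors of the jasmonate pathway until the hormone triggers their destruction.

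The libraries held 17583467 to 21030374 counts, and these genes took 0.2234, 0.2246 and 0.2337% of the counts in jazD cdk8-1, 0.2725, 0.3192 and 0.2671% in jazD, 0.1918, 0.1941 and 0.1926% in cdk8-1, and 0.1867, 0.1862 and 0.1784% in Col-0. Levels of single genes are given as counts-per-million values (CPM), scaled by TMM factors. *CDK8* had 2.72 to 3.30 CPM in jazD cdk8-1 and 2.30 to 2.74 CPM in cdk8-1, against 20.1 to 21.1 CPM in jazD and 17.4 to 20.3 CPM in Col-0. In jazD, 5 of the 10 mutated *JAZ* genes were lower than in Col-0, among them *JAZ6* (2.72 to 3.29 CPM in jazD, 29.2 to 36.8 CPM in Col-0), and 3 were higher (*JAZ9*, *JAZ10* and *JAZ13*). Counts cover whole genes, so reads from an interrupted gene are still counted. Leaf markers summed to 53790 to 64360 CPM in the 12 libraries, floral markers to 0.59 to 2.16 CPM and root markers to 0.467 to 3.00 CPM. In bulk tissue, fewer cells of a type and less RNA per cell cannot be told apart.

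The start regions of the 3 genes with the largest rises in jazD among those with a mean log2 CPM of at least 1, and of the tau gene *GSTU17*, which was lower there, are shown because the comparisons turn on these genes. Each run holds 300 bases, with 250 before and 50 after the annotated start, in the direction of transcription (RefSeq, build TAIR10.1, matched to the authors' TAIR10 loci by locus name). They were searched on both strands for TGACG, the core of the sites of TGA factors, for CACGTG, a sequence bound by bHLH factors such as MYC2, and for GCCGCC, a sequence bound by ERF factors. Capitals mark every match. *GSTF7* lies at chr1:659931-660230 (minus strand), *GSTF2* at chr4:1111984-1112283 (minus strand), *GSTU13* at chr1:9425030-9425329 (plus strand) and *GSTU17* at chr1:3398309-3398608 (minus strand).
GSTF7: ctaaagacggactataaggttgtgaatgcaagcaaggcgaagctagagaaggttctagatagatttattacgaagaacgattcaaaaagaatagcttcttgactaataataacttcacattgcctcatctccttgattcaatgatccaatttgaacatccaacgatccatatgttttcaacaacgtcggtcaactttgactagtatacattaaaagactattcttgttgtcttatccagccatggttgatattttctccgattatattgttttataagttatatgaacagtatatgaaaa
GSTF2: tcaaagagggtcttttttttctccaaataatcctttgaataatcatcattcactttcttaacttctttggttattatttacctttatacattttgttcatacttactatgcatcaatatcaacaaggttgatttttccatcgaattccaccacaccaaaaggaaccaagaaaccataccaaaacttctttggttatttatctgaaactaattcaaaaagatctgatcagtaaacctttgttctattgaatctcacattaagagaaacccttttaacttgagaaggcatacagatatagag
GSTU13: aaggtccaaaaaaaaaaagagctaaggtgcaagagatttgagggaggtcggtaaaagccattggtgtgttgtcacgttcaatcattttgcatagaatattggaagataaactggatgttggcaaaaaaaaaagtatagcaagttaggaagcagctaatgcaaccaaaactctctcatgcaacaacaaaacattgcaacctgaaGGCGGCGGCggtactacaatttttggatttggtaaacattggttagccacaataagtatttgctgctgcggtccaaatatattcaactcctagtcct
GSTU17: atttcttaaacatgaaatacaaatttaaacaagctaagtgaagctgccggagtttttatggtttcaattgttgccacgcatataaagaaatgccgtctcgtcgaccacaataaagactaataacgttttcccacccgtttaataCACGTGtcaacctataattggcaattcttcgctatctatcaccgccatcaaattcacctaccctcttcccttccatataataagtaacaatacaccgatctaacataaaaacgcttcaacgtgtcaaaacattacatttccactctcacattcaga

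The windows of *GSTF7* and *GSTF2* held none of the 3 sequences. *GSTU13* held 2 overlapping copies of the ERF sequence on the reverse strand, with first bases at -47 and -44 from the start, and *GSTU17* held the bHLH sequence at -106. Of all 27443 promoters of protein-coding genes cut in the same way, 23.1% held the TGA core, 7.68% the bHLH sequence and 2.57% the ERF sequence. Of the 52 glutathione S-transferase promoters, 18 held the TGA core, 5 the bHLH sequence and 3 the ERF sequence. The TGA core stood in 5 of the 15 genes called higher in jazD than in Col-0, in none of the 4 called lower and in 7 of the 18 tested and not called. A match is a string of letters and not a measured site.

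Levels between genes are compared in transcripts-per-million values (TPM), which allow for gene length. In Col-0 the highest mean levels among the 52 genes were those of *GSTU20* (583.9 ± 20.0 TPM, SD, n = 3), *GSTU19* (317.9 ± 17.9 TPM), *GSTL3* (256.2 ± 6.94 TPM), AT1G30230 (232.4 ± 5.63 TPM) and *GSTF2* (225.6 ± 29.8 TPM). *GSTU19* and *GSTU20* are tau enzymes and *GSTL3* is a lambda enzyme, a class known to reduce oxidised thiols. The last 3 of these genes stood close together: the libraries of *GSTF2* (193 to 251 TPM) overlapped those of AT1G30230 (226 to 236 TPM) and of *GSTL3* (250 to 264 TPM). The set spanned a wide range, and 15 genes fell under the filter on low counts and were left out of the main test.

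**Figure D1:**
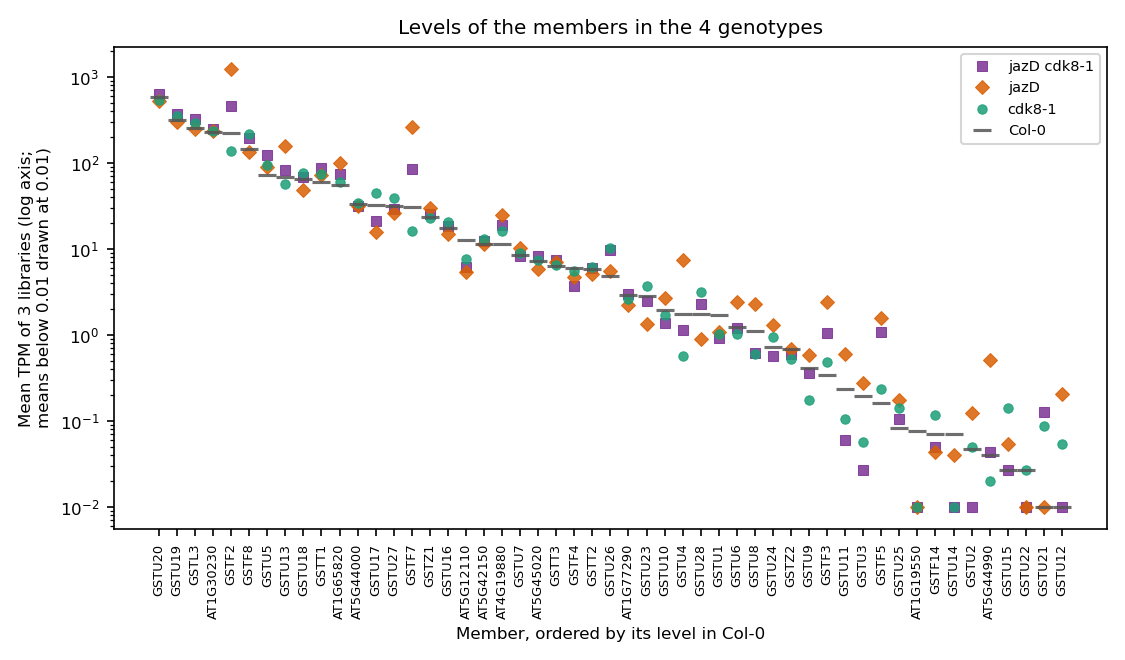
Mean TPM of 3 libraries per genotype (log axis) for each glutathione S-transferase gene, ordered by the level in Col-0, with means under 0.01 drawn at 0.01 and *GSTF13*, at 0 throughout, left out. Most symbols of a gene lie close together, while the jazD symbols of *GSTF2*, *GSTF7* and *GSTU4* stand above the others.

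The make-up of the set shifted with genotype. The 8 phi genes summed to 693, 714 and 823 TPM in jazD cdk8-1, 1428, 2107 and 1400 TPM in jazD, 378, 362 and 399 TPM in cdk8-1, and 438, 423 and 369 TPM in Col-0. Both lines with the jazD mutations lay above the libraries of cdk8-1 and Col-0 without overlap. Phi genes made 25.0% of the summed TPM of the set in jazD cdk8-1, 45.2% in jazD, 15.8% in cdk8-1 and 17.5% in Col-0. All 5 loci left out by the rule are phi genes, so these shares and the ranks below hold for the set and not for the family. Of those left out, *GSTF9* had 975 TPM in Col-0 and 1857 TPM in jazD, and *GSTF10* had 221 and 1104 TPM. The sum rested largely on *GSTF2*, with 1242 of the mean phi sum of 1645 TPM in jazD and 226 of 410 TPM in Col-0. *GSTF7* had 261 TPM in jazD and 30.6 TPM in Col-0, while *GSTF8* had 134 and 147 TPM, so the shift was not one of the whole class. The 28 tau genes summed to 1378 ± 14.3 TPM in jazD cdk8-1, 1212 ± 15.2 TPM in jazD, 1249 ± 34.9 TPM in cdk8-1 and 1217 ± 43.0 TPM in Col-0 (SD, n = 3 each). Sums on this scale carry its shift: TPM moved the median gene by 0.13 on the log2 scale between jazD cdk8-1 and jazD, where TMM-scaled counts put it at 0.00. By mean TPM, *GSTF2* had rank 2 of the set in jazD cdk8-1, rank 1 in jazD, rank 6 in cdk8-1 and rank 5 in Col-0.

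**Figure D2:**
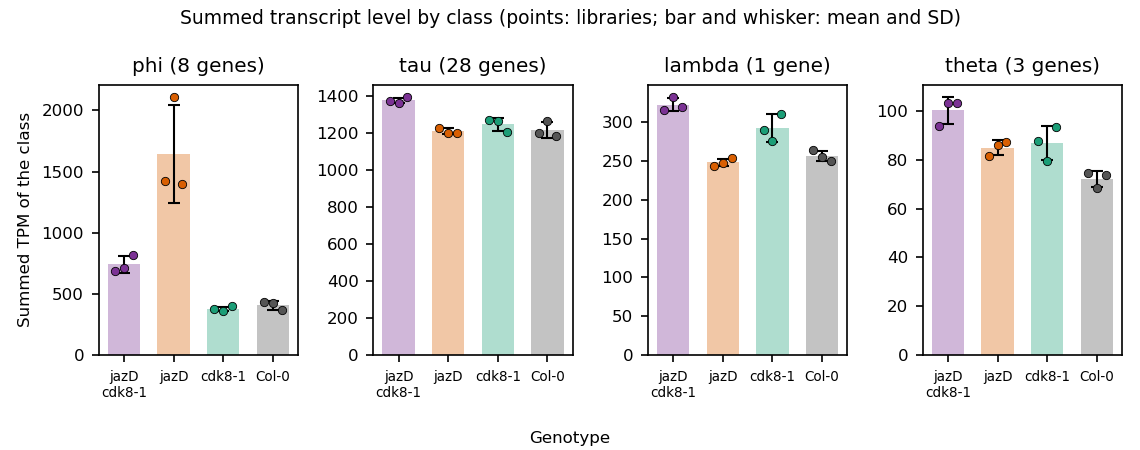
Summed TPM of the phi, tau, lambda and theta genes in the 4 genotypes, with points for libraries and bars and whiskers for mean and SD (n = 3). Phi genes sum to 1400 to 2107 TPM in jazD and to 693 to 823 TPM in jazD cdk8-1, against 362 to 438 TPM in the lines with intact *JAZ* genes, while tau genes lie between 1184 and 1394 TPM in all 12 libraries.

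Loss of JAZ repressors came with higher RNA of several phi and tau genes. Of the 37 genes tested between jazD and Col-0, 15 were called higher and 4 lower by the quasi-likelihood test of edgeR (Benjamini-Hochberg adjusted p of 0.05 over 19059 genes), where 42.8% of all tested genes were called, 21.8% higher and 20.9% lower. The libraries of 22 of the 37 did not overlap between the genotypes, against 51.5% of all genes. Their median log2 fold change was 0.11, with 0.00 for all genes. On the TPM scale with limma, 13 were called higher and 9 lower, and over all genes the share of higher calls was 37.9%, against 51.0% in the main test.

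Among phi genes, *GSTF7* and *GSTF2* rose in jazD, *GSTF8* and *GSTF4* did not pass, and *GSTF5* and *GSTF3* are treated apart because of their few counts. *GSTF7*, a stress-responsive phi enzyme, reached 155, 256 and 148 CPM in jazD, against 22.6, 22.0 and 17.6 CPM in Col-0. Every jazD library lay above every Col-0 library, and the second jazD library stood highest. The fold was 3.17 ± 0.17 on the log2 scale (adjusted p = 1.92e-12, edgeR), and 2.87 without that library. *GSTF2*, a phi enzyme known to bind small indole and flavonoid compounds, had 856, 1228 and 829 CPM in jazD and 189, 169 and 145 CPM in Col-0 (log2 fold change 2.53 ± 0.12, adjusted p = 2.53e-13, edgeR). The second jazD library was again the highest, and without it the log2 fold change was 2.33. Its locus overlaps AT4G02510 on the opposite strand over 1442 bases, and that neighbour fell by 0.25 on the log2 scale (adjusted p = 3.92e-05, edgeR) at 5188 to 7659 counts per library. The strand protocol is not given in the sources used here, so the part of each in the overlap cannot be told apart.

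*GSTF5* and *GSTF3*, chosen after their values were seen, had few counts and passed the filter only through their libraries in the jazD background, so their test after filtering is no support, and they count among the 15 above. Their adjusted p-values are given from the edgeR fit without a filter, where entry did not depend on these libraries. *GSTF5* had 11, 18 and 19 counts in jazD and 1, 1 and 3 counts in Col-0 (log2 fold change 3.27, adjusted p = 6.24e-06, edgeR without a filter). *GSTF3* had 26, 44 and 30 counts in jazD and 4, 5 and 5 counts in Col-0 (2.89 on the log2 scale, adjusted p = 1.50e-08, edgeR without a filter). Libraries of neither gene overlapped. The coding sequence of *GSTF3* is 94.5% identical to that of *GSTF2*, and that of *GSTF7* is 94.7% identical to *GSTF6*, a locus that the rule leaves out, with runs of 74 and 116 shared bases, so the division of reads within each pair depends on the authors' tool. *GSTF8*, a phi gene known as an early oxidative stress marker, had 206 to 214 CPM in jazD and 217 to 223 CPM in Col-0 and did not pass (log2 fold change -0.06 ± 0.04, adjusted p = 0.223, edgeR). *GSTF4* did not pass either (-0.30 ± 0.20, adjusted p = 0.251, edgeR).

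Of the 18 tau genes tested, 6 rose and 3 fell in jazD. *GSTU13*, known to act in the breakdown of indole glucosinolates during pathogen defence, had 144, 136 and 144 CPM in jazD and 56.8, 57.6 and 59.6 CPM in Col-0, and the groups stood far apart (log2 fold change 1.29 ± 0.05, adjusted p = 1.11e-14, edgeR). *GSTU5* rose by less, with 63.8, 69.2 and 63.9 CPM in jazD and 47.0, 50.3 and 53.1 CPM in Col-0 (0.39 ± 0.06 on the log2 scale, adjusted p = 2.13e-05, edgeR). *GSTU4*, a gene of low level chosen after its values were seen, had 77, 166 and 54 counts in jazD and 14, 30 and 25 counts in Col-0 (2.17 ± 0.31 on the log2 scale, adjusted p = 7.74e-06, edgeR). Its second jazD library was the highest, as for *GSTF7* and *GSTF2*, and the value was 1.67 without it. *GSTU8* and *GSTU6*, also of few counts, were called with log2 fold changes of 1.10 and 1.07, and *GSTU7* with 0.33. The call of *GSTU8* ended without the second jazD library (adjusted p = 0.0621, edgeR) or the first Col-0 library (adjusted p = 0.0648, edgeR), that of *GSTU6* without the first jazD library (adjusted p = 0.0746, edgeR). The call of *GSTU7* ended when any of several libraries was left out and with DESeq2 (adjusted p = 0.0976).

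*GSTU17*, a tau gene known from light and drought responses, fell to 12.1, 10.96 and 12.8 CPM in jazD, against 26.5, 21.3 and 21.4 CPM in Col-0 (log2 fold change -0.95 ± 0.11, adjusted p = 5.29e-07, edgeR). Its tandem neighbour *GSTU18*, which overlaps it by 71 bases on the same strand, fell to 36.2, 31.2 and 34.4 CPM in jazD, against 43.9, 42.9 and 43.5 CPM in Col-0 (-0.36 ± 0.07, adjusted p = 0.000144, edgeR). Libraries of jazD lay below those of Col-0 for both. *GSTU23*, of few counts, was lower at -0.98 ± 0.29 on the log2 scale (adjusted p = 0.00934, edgeR), a call that ended without the third jazD library (adjusted p = 0.0530). The most abundant tau genes did not pass: *GSTU20*, whose product is known to bind the jasmonate-conjugating enzyme JAR1, had 337 to 384 CPM in jazD and 375 to 387 CPM in Col-0 (-0.07 ± 0.05, adjusted p = 0.252, edgeR), and *GSTU19* differed by -0.03 ± 0.05 (adjusted p = 0.696).

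In the smaller classes, AT1G65820, the microsomal gene, had 68.6, 73.5 and 67.1 CPM in jazD and 37.2, 35.3 and 37.3 CPM in Col-0 (log2 fold change 0.93 ± 0.05, adjusted p = 8.25e-12, edgeR). AT4G19880, a family protein, had 32.4, 34.3 and 32.2 CPM in jazD and 15.1, 13.9 and 14.0 CPM in Col-0 (a fold of 2.30, adjusted p = 3.08e-12, edgeR). Neither gene's libraries overlapped. *GSTZ1*, the zeta enzyme of tyrosine breakdown, rose by 0.43 ± 0.08 on the log2 scale (adjusted p = 8.20e-05, edgeR) and the theta gene *GSTT1* by 0.36 ± 0.06 (adjusted p = 3.37e-05, edgeR). AT5G12110, an elongation factor, fell to 3.81, 3.59 and 4.32 CPM in jazD, against 8.72, 9.23 and 8.75 CPM in Col-0 (-1.19 ± 0.12, adjusted p = 3.59e-08, edgeR). Its locus overlaps AT5G12120 on the opposite strand over 1221 bases, a neighbour with a log2 fold change of 0.00 (adjusted p = 0.956, edgeR). That neighbour had 1129 to 1609 counts per library, against 70, 73 and 73 counts of AT5G12110 in jazD and 168, 184 and 175 in Col-0. With the strand protocol not given, the part of each in the overlap cannot be told apart here either. The other elongation factor, AT1G30230, was called higher at 0.11 ± 0.04 (adjusted p = 0.0416, edgeR), which did not hold without single libraries of either genotype (adjusted p up to 0.104). *GSTL3*, *GSTT2*, *GSTT3* and the other 4 tested family proteins did not pass, with log2 fold changes from -0.27 to 0.21.

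**Figure D3:**
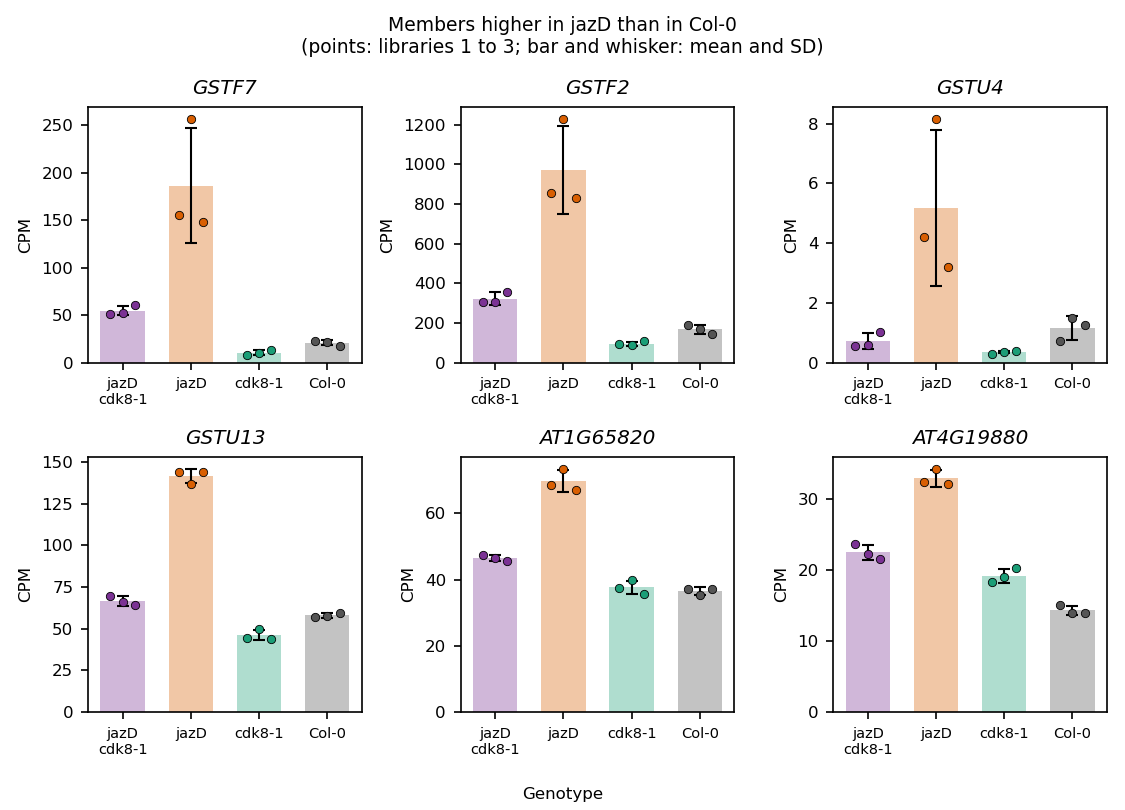
TMM-scaled CPM of 6 genes called higher in jazD than in Col-0, with points for libraries 1 to 3 and bars and whiskers for mean and SD. In every panel the jazD points lie above those of the other 3 genotypes, and for *GSTF7*, *GSTF2* and *GSTU4* the second jazD library is the highest.

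Senescence markers rose in jazD relative to Col-0, as *GSTF7* and *GSTF2* did, but were lower in jazD cdk8-1 than in Col-0. Their summed level was 13.2 to 17.9 CPM in jazD cdk8-1, 49.0 to 64.2 CPM in jazD, 7.73 to 13.2 CPM in cdk8-1 and 25.6 to 32.4 CPM in Col-0. Of the 5 listed, 4 were tested and 3 called higher in jazD than in Col-0, against 21.8% of all tested genes. Of these 3, *WRKY53* had overlapping libraries, and its call ended without the second jazD library (log2 fold change 0.57, adjusted p = 0.0655, edgeR), with DESeq2 (adjusted p = 0.0545) and on the TPM scale (adjusted p = 0.0558, limma). The second jazD library was the highest of its group for this sum too. *SAG12*, the marker that defines late senescence, had 0 counts in all 3 jazD libraries and all 3 Col-0 libraries. The root marker *NRT2.1*, a nitrate transporter and the only tested gene of 7 in its list, was higher in jazD at 2.11 to 2.89 CPM, against 0.208 to 0.853 CPM in Col-0. Of the 5 leaf markers 2 were lower in jazD than in Col-0 and none higher, where 20.9% of all tested genes were called lower. The floral marker *AG*, the only tested gene of 6 in its list, was lower (-1.47 ± 0.45, adjusted p = 0.0126, edgeR). That call ended without the first jazD library (adjusted p = 0.0712, edgeR). The part of these markers in the changes of glutathione S-transferase genes was not tested.

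Loss of CDK8 with intact *JAZ* genes lowered some of the genes that were raised in jazD (*GSTF7*, *GSTF2*, *GSTU13* and *GSTU4*) and raised others of them (AT4G19880, *GSTU5* and *GSTT1*). Of the 37 tested genes, 7 were called higher and 7 lower in cdk8-1 than in Col-0 by edgeR, where 25.5% of all tested genes were called, 11.7% higher and 13.8% lower. On the TPM scale 12 were higher and 6 lower, and the share of higher calls over all genes was 69.4%, against 45.9% in the main test. *GSTF7* fell to 8.13, 9.61 and 13.4 CPM in cdk8-1, against 22.6, 22.0 and 17.6 CPM in Col-0 (log2 fold change -0.99 ± 0.22, adjusted p = 0.00173, edgeR). *GSTF2* fell to 91.0, 89.0 and 108 CPM in cdk8-1, against 189, 169 and 145 CPM in Col-0 (-0.81 ± 0.12, adjusted p = 3.62e-05, edgeR). Libraries of both genes stood apart, as they did for 15 of the 37 genes, against 37.6% of all genes. *GSTU13* fell by 0.33 ± 0.05 on the log2 scale (adjusted p = 8.45e-05, edgeR), *GSTU20* by 0.21 ± 0.05 (adjusted p = 0.00353) and AT5G12110 by 0.84 ± 0.11 (adjusted p = 5.97e-06). The call of *GSTU20* ended on the TPM scale (adjusted p = 0.0690, limma). *GSTU4* and *GSTU1*, of few counts, were called lower at -1.72 ± 0.49 and -0.81 ± 0.29, and these calls ended without the second Col-0 library (adjusted p = 0.0634 and 0.189, edgeR). *GSTU1*, whose libraries overlapped, was called near the threshold (adjusted p = 0.0479, edgeR) and also failed with DESeq2 (adjusted p = 0.141). Its call ended too without a filter, with the replicate block and with only the 2 groups compared (adjusted p = 0.0644, 0.0542 and 0.0698, edgeR). The same held without most other single libraries.

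Of the senescence markers, 3 of the 4 tested were called lower in cdk8-1 than in Col-0 (*SEN1* at -1.71, *SAG13* at -1.42 and *WRKY53* at -1.34 on the log2 scale, edgeR). Over all tested genes, 13.8% were called lower and 11.7% higher. Of the 5 leaf markers 4 were lower and 1 higher, with summed levels of 56390 to 63060 CPM in cdk8-1 and 61400 to 64360 CPM in Col-0. Their part in the changes of glutathione S-transferase genes was not tested.

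Other genes were higher in cdk8-1. *GSTU26* had 6.09, 6.77 and 7.40 CPM in cdk8-1 and 3.27, 4.06 and 2.70 CPM in Col-0 (log2 fold change 1.01 ± 0.15, adjusted p = 3.35e-05, edgeR). *GSTF8* had 309, 320 and 299 CPM in cdk8-1 and 223, 219 and 217 CPM in Col-0 (0.49 ± 0.04, adjusted p = 7.58e-09, edgeR). In both genes every cdk8-1 library lay above every Col-0 library. AT4G19880 rose by 0.42 ± 0.07 (adjusted p = 8.55e-05, edgeR), *GSTU17* by 0.39 ± 0.10 (adjusted p = 0.00531), *GSTU5* by 0.29 ± 0.06 (adjusted p = 0.00126) and *GSTU27* by 0.24 ± 0.08 (adjusted p = 0.0304). *GSTT1* was higher by 0.22 ± 0.06 (adjusted p = 0.00741), a call that ended without the second Col-0 library (adjusted p = 0.0591) or the third cdk8-1 library (adjusted p = 0.0541). The call of *GSTU27* ended without any of the 3 cdk8-1 libraries (adjusted p from 0.0541 to 0.0770) or the third Col-0 library (adjusted p = 0.150) and with DESeq2 (adjusted p = 0.0545).

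In the jazD background, loss of CDK8 lowered *GSTF7*, *GSTF2*, *GSTU13* and *GSTU4*, among others, and raised *GSTF8*, *GSTU5* and *GSTL3*. Of the 37 tested genes, 8 were called higher and 13 lower in jazD cdk8-1 than in jazD by edgeR, where 35.8% of all tested genes were called, 16.9% higher and 19.0% lower. The libraries of 25 did not overlap, against 47.9% of all genes. On the TPM scale 14 were higher and 12 lower, and over all genes the share of higher calls was 75.7%, against 47.1% in the main test. Since the jazD libraries enter this comparison and that of jazD with Col-0, values of both are given side by side and no relation between them was computed.

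*GSTF7* fell to 51.2, 52.5 and 60.4 CPM in jazD cdk8-1, against 155, 256 and 148 CPM in jazD (log2 fold change -1.77 ± 0.15, adjusted p = 7.98e-09, edgeR, and -1.48 without the second jazD library). *GSTF2* fell to 303, 304 and 358 CPM in jazD cdk8-1, against 856, 1228 and 829 CPM in jazD (-1.59 ± 0.12, adjusted p = 5.75e-10, edgeR, and -1.40 without that library). Neither gene's libraries overlapped. In the fit without a filter *GSTF3* was lower by 1.34 on the log2 scale (adjusted p = 0.000754, edgeR), while *GSTF5* did not pass (-0.67, adjusted p = 0.252) with 9, 10 and 14 counts in jazD cdk8-1 and 11, 18 and 19 counts in jazD. *GSTF8* was higher, at 271, 283 and 278 CPM in jazD cdk8-1 and 214, 211 and 206 CPM in jazD (0.40 ± 0.04, adjusted p = 8.61e-08, edgeR).

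Among tau genes, *GSTU13* fell to 69.8, 66.2 and 64.1 CPM in jazD cdk8-1, against 144, 136 and 144 CPM in jazD (log2 fold change -1.09 ± 0.05, adjusted p = 3.51e-13, edgeR). *GSTU4* fell to 10, 12 and 22 counts in jazD cdk8-1, against 77, 166 and 54 counts in jazD (-2.84 ± 0.34, adjusted p = 8.30e-07, edgeR), and *GSTU8* fell by 1.99 ± 0.41 (adjusted p = 0.000641). In both the libraries stood apart. *GSTU6*, *GSTU24*, *GSTU10* and *GSTU7* were also called lower, with log2 fold changes of -1.17, -1.33, -1.12 and -0.44. *GSTU24* had 4, 10 and 6 counts in jazD cdk8-1 and 7, 27 and 13 counts in jazD, and these libraries overlapped. It passed the filter only through libraries of jazD, where it was high, and of cdk8-1, so its test after filtering is no support. Without the second jazD library *GSTU24* (-0.78, adjusted p = 0.242, edgeR) and *GSTU10* (-0.77, adjusted p = 0.0565) were no longer called, and *GSTU6* was not without the first (-0.90, adjusted p = 0.0544). *GSTU24* also failed without the first or the third jazD cdk8-1 library (adjusted p = 0.0774 and 0.0797), and *GSTU7* without the second (adjusted p = 0.0602) and on the TPM scale (adjusted p = 0.0625, limma).

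*GSTU26* had 5.67, 5.98 and 7.22 CPM in jazD cdk8-1 and 4.68, 3.78 and 3.67 CPM in jazD (log2 fold change 0.64 ± 0.15, adjusted p = 0.00208, edgeR). *GSTU5* had 83.3, 80.9 and 80.2 CPM in jazD cdk8-1 and 63.8, 69.2 and 63.9 CPM in jazD (0.31 ± 0.06, adjusted p = 0.000262, edgeR). *GSTU18* rose to 42.9, 41.5 and 42.9 CPM in jazD cdk8-1, against 36.2, 31.2 and 34.4 CPM in jazD (0.33 ± 0.07, adjusted p = 0.000530, edgeR). Libraries of these 3 genes did not overlap. *GSTU28*, of few counts, and *GSTU19* were called higher at 1.19 ± 0.40 and 0.16 ± 0.05, calls that each ended when single libraries were left out (adjusted p up to 0.148 and 0.0630). *GSTU17* did not pass, with 17.5, 13.9 and 12.2 CPM in jazD cdk8-1 and 12.1, 10.96 and 12.8 CPM in jazD (0.27 ± 0.12, adjusted p = 0.0792, edgeR).

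Outside the tau and phi classes, AT1G65820 fell to 45.5 to 47.4 CPM in jazD cdk8-1, against 67.1 to 73.5 CPM in jazD (log2 fold change -0.59 ± 0.05, adjusted p = 1.68e-08, edgeR). AT4G19880 fell to 21.6 to 23.7 CPM in jazD cdk8-1, against 32.2 to 34.3 CPM in jazD (-0.55 ± 0.06, adjusted p = 4.38e-07, edgeR), and *GSTZ1* fell by 0.37 ± 0.07 (adjusted p = 0.000459). *GSTL3* rose to 240 to 256 CPM in jazD cdk8-1, against 207 to 217 CPM in jazD (0.22 ± 0.05, adjusted p = 0.000509, edgeR). AT5G45020, a family protein, was higher by 0.34 ± 0.12 (adjusted p = 0.0280, edgeR), a call that ended without the second jazD library (0.26, adjusted p = 0.144), without other single libraries and with DESeq2 (adjusted p = 0.0722). This locus and AT5G44990 lie on chromosome 5 between AT5G44490 and AT5G56910, a stretch known from earlier results of these data to hold 23 of the 40 tested genes at least 8-fold lower in jazD than in Col-0 among its 926 tested genes. AT5G12110 did not pass, with 3.92 to 4.17 CPM in jazD cdk8-1 and 3.59 to 4.32 CPM in jazD (0.05 ± 0.13, adjusted p = 0.788, edgeR).

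Senescence markers fell with these genes in jazD cdk8-1 relative to jazD: all 4 tested were called lower, against 19.0% of all tested genes. Among them *SEN1* had 7.75 to 10.6 CPM in jazD cdk8-1 and 31.2 to 34.2 CPM in jazD (log2 fold change -1.83 ± 0.12, adjusted p = 1.15e-10, edgeR). The root marker *NRT2.1* was lower too, at 0.834 to 1.30 CPM in jazD cdk8-1 and 2.11 to 2.89 CPM in jazD (-1.14 ± 0.28, adjusted p = 0.00348, edgeR). Of the 5 leaf markers 2 were higher and 2 lower, where 16.9% of all tested genes were called higher and 19.0% lower. The floral marker *AG* was higher (1.34 ± 0.46, adjusted p = 0.0276, edgeR), a call that ended without the first jazD library (adjusted p = 0.135, edgeR). The part of these markers in the result was not tested.

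With both kinds of mutation *GSTF7* and *GSTF2* were above the wild type. Between jazD cdk8-1 and Col-0, 13 of the 37 genes were called higher and 5 lower by edgeR, where 32.4% of all tested genes were called, 16.3% higher and 16.1% lower. The libraries of 20 did not overlap, against 44.8% of all genes. *GSTF8* was also higher and *GSTF4* lower. *GSTF3* and *GSTF5* count among the 13, but their test after filtering is no support here either. In the fit without a filter they were higher by 1.55 and 2.60 on the log2 scale (adjusted p = 0.00789 and 0.000979, edgeR). After filtering, the call of *GSTF3* ended without the second or the third jazD cdk8-1 library (adjusted p = 0.0793 and 0.0522, edgeR). *GSTF7* had 51.2, 52.5 and 60.4 CPM in jazD cdk8-1 and 22.6, 22.0 and 17.6 CPM in Col-0 (log2 fold change 1.40 ± 0.18, adjusted p = 2.54e-06, edgeR). *GSTF2* had 303, 304 and 358 CPM in jazD cdk8-1 and 189, 169 and 145 CPM in Col-0 (0.94 ± 0.12, adjusted p = 2.19e-06, edgeR). These values lay between those of jazD and Col-0 without overlap with either. *GSTF4* was lower by 0.78 ± 0.21 on the log2 scale (adjusted p = 0.00639, edgeR). On the TPM scale 13 were higher and 4 lower, and over all genes the share of higher calls was 66.8%, against 50.4% in the main test. Of the 4 tested senescence markers, 2 were called lower than in Col-0 and none higher (*SEN1* at -0.87 and *SAG13* at -1.47 on the log2 scale, edgeR). Of the 5 leaf markers 4 were called lower than in Col-0 and none higher. The part of these markers in the changes was not tested.

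*GSTU4*, in contrast, did not pass between jazD cdk8-1 (10, 12 and 22 counts) and Col-0 (14, 30 and 25 counts), with a log2 fold change of -0.68 ± 0.42 (adjusted p = 0.240, edgeR). *GSTU5* was highest in this genotype, at 80.2 to 83.3 CPM, against 47.0 to 53.1 CPM in Col-0 (0.70 ± 0.06, adjusted p = 8.14e-09, edgeR). *GSTU26* (0.92 ± 0.15, adjusted p = 8.60e-05), AT4G19880 (0.65 ± 0.07, adjusted p = 1.81e-07) and *GSTT1* (0.45 ± 0.06, adjusted p = 2.27e-06) were also higher than in Col-0 by edgeR. AT5G12110 fell by 1.14 ± 0.11 (adjusted p = 9.36e-08, edgeR) and *GSTU17* by 0.68 ± 0.11 (adjusted p = 4.49e-05). AT5G44000, a family protein, was called lower by 0.18 ± 0.07 (adjusted p = 0.0475, edgeR), which did not hold without any of the 3 jazD cdk8-1 libraries (adjusted p from 0.0847 to 0.108), without the third Col-0 library (adjusted p = 0.228) or with DESeq2 (adjusted p = 0.0645). *GSTU1*, of few counts, was lower by 0.95 ± 0.30 (adjusted p = 0.0181), and this call ended when single libraries of either genotype were left out (adjusted p up to 0.0906).

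**Figure D4:**
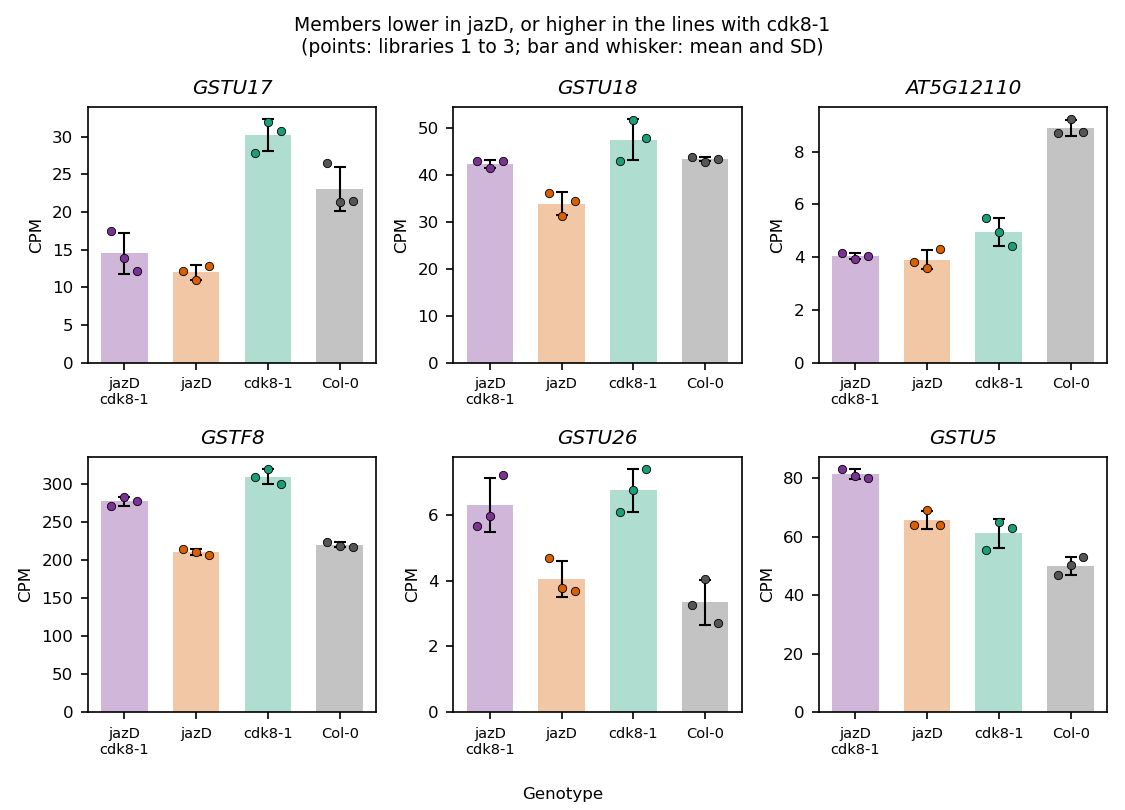
TMM-scaled CPM of 6 genes with other patterns, either reduced in jazD or raised in lines with cdk8-1, with points for libraries 1 to 3 and bars and whiskers for mean and SD. AT5G12110 is lower in all 3 mutant lines than in Col-0, *GSTF8* and *GSTU26* are higher in both lines with cdk8-1 than in the line without it, and *GSTU5* is highest in jazD cdk8-1.

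The effect of cdk8-1 differed between the backgrounds for 6 of the 37 genes, where 16.5% of all tested genes were called by the interaction test of edgeR, 8.16% positive and 8.39% negative. Of the 6, 2 were positive and 4 negative. On the TPM scale 3 were positive and 6 negative, and over all genes the share of positive calls was 59.7%, against 49.3% in the main test. The interaction subtracts the log2 effect of cdk8-1 in the *JAZ* wild-type background (cdk8-1 against Col-0) from its log2 effect in jazD. AT4G19880 had -0.98 ± 0.09 (adjusted p = 1.97e-07, edgeR), since cdk8-1 lowered it in jazD (-0.55) and raised it with intact *JAZ* genes (0.42). *GSTU13* had -0.76 ± 0.07 (adjusted p = 2.76e-07) with effects of -1.09 in jazD and -0.33 with intact *JAZ* genes. AT1G65820 had -0.63 ± 0.08 (adjusted p = 7.22e-06) with effects of -0.59 and 0.04. *GSTF2* had -0.79 ± 0.17 (adjusted p = 0.00220) with effects of -1.59 and -0.81, and the call ended on the TPM scale without a filter on low values (-0.70, adjusted p = 0.0865, limma). AT5G12110 had 0.90 ± 0.17 (adjusted p = 0.000853) and *GSTU20* had 0.33 ± 0.07 (adjusted p = 0.00269). For *GSTF7* the interaction did not pass (-0.78 ± 0.27, adjusted p = 0.0526, edgeR), and neither did it for *GSTF8* (-0.09 ± 0.06, adjusted p = 0.288), *GSTU5* (0.02 ± 0.08, adjusted p = 0.891) or *GSTU4* (-1.12 ± 0.67, adjusted p = 0.286).

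**Figure D5:**
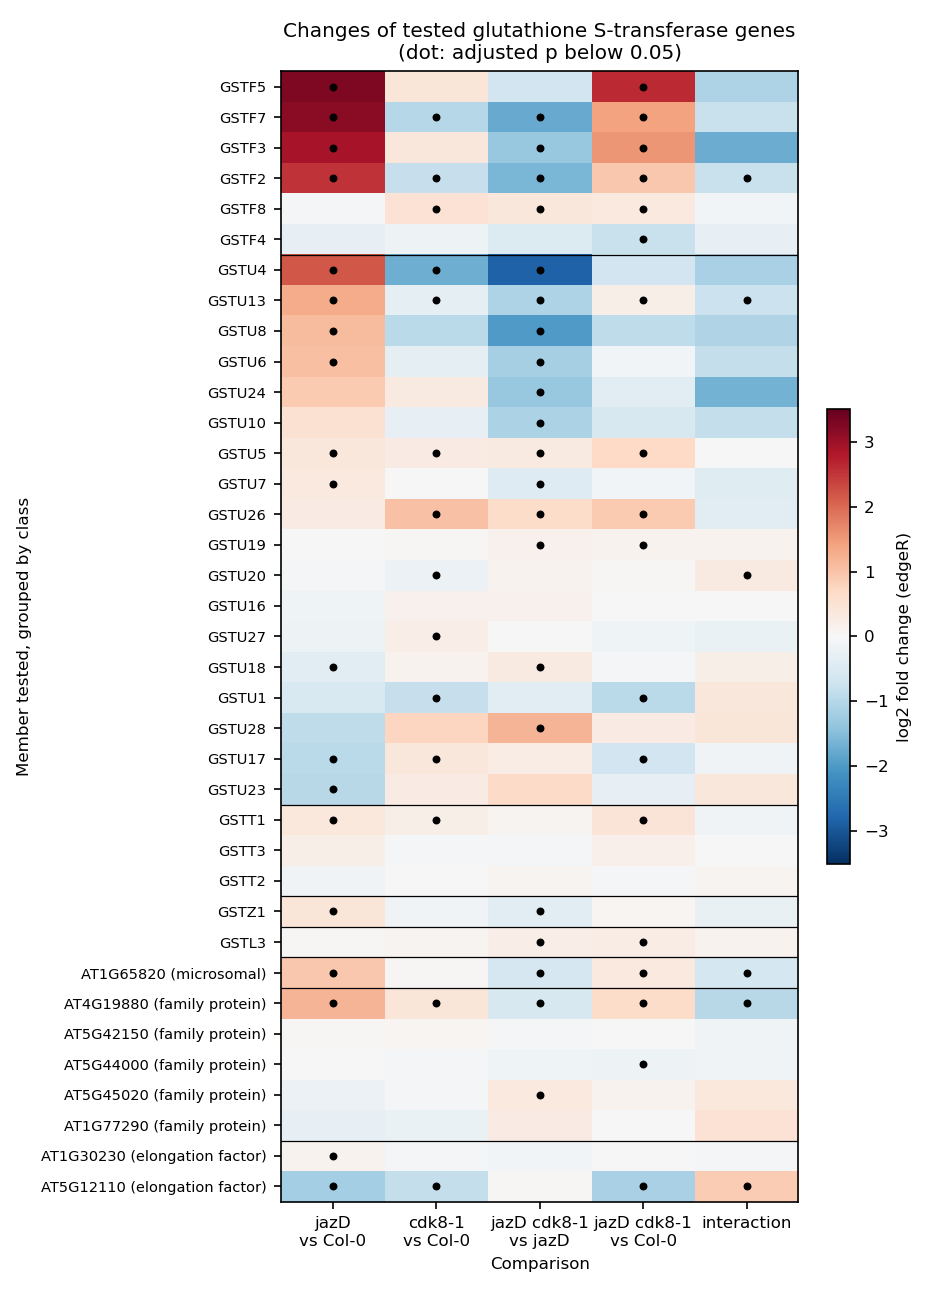
Log2 fold changes of the 37 tested genes (rows, grouped by class) in the 4 comparisons and the interaction (columns), with a dot where the adjusted p of edgeR was below 0.05. The rows of *GSTF5*, *GSTF7*, *GSTF3* and *GSTF2* are red in jazD against Col-0 and in jazD cdk8-1 against Col-0, and those of *GSTF7*, *GSTF3*, *GSTF2* and *GSTU4* are blue with a dot in jazD cdk8-1 against jazD.

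The genes left out by the filter were *GSTU2*, *GSTU3*, *GSTU9*, *GSTU11*, *GSTU12*, *GSTU14*, *GSTU15*, *GSTU21*, *GSTU22* and *GSTU25*, the phi genes *GSTF13* and *GSTF14*, the zeta gene *GSTZ2* and the family proteins AT1G19550 and AT5G44990. None had more than 17 counts in a library, and *GSTF13* had 0 counts in all 12. Chosen after the values were seen, AT5G44990 summed to 27 counts over the 3 jazD libraries and 2 counts over those of Col-0, a ratio of 14.4 (95% interval 3.61 to 125, counting error only), and jazD cdk8-1 had 2 counts, 14.7-fold lower than jazD (3.69 to 127). Its counts in jazD were 6, 17 and 4. *GSTU11* summed to 3 counts in jazD cdk8-1 and 29 in jazD, 10.5-fold lower (3.26 to 53.9), and to 11 in Col-0. *GSTU12* had 0, 3 and 5 counts in jazD, 8 in all, and 0 in Col-0, so 1 jazD library did not differ from Col-0. The ratio was 2.84 with 3 counts taken as the limit over the 3 Col-0 libraries, and the counting error of the 8 is not in it. In the edgeR fit without a filter, which took in 14 of the 15, AT5G44990 and *GSTU12* were called higher in jazD than in Col-0 (adjusted p = 0.000800 and 0.0339), and AT5G44990, *GSTU11* and *GSTU12* lower in jazD cdk8-1 than in jazD (adjusted p = 0.000903, 0.00152 and 0.0379). None of the 14 was called in cdk8-1 against Col-0, in jazD cdk8-1 against Col-0 or in the interaction by that fit.

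Genes next to each other did not all move together. Of the 52 genes, 33 lay in 11 tandem groups with at most 3 genes between neighbours. In the group of *GSTU1* to *GSTU7* on chromosome 2 (14.6 kb), *GSTU4*, *GSTU5*, *GSTU6* and *GSTU7* were called higher in jazD than in Col-0, *GSTU1* did not pass (log2 fold change -0.54 ± 0.29, adjusted p = 0.138, edgeR) and *GSTU2* and *GSTU3* were left out by the filter. In jazD cdk8-1 against jazD, *GSTU4*, *GSTU6* and *GSTU7* were lower and *GSTU5* higher. In the group of *GSTF7*, *GSTF5* and *GSTF4* on chromosome 1 (7.9 kb), *GSTF7* and *GSTF5* rose in jazD and *GSTF4* did not pass. In the group of *GSTU19* to *GSTU23* on chromosome 1 (20.6 kb), *GSTU23* alone was called between jazD and Col-0, and *GSTU21* and *GSTU22* were left out by the filter. In all, 16 of the 52 loci overlap another annotated gene.

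Other genes of glutathione metabolism were taken from a list made with earlier results of these data known. Both genes of glutathione synthesis rose in jazD relative to Col-0: *GSH1*, the glutamate-cysteine ligase, had 329 to 349 CPM in jazD and 236 to 253 CPM in Col-0 (log2 fold change 0.47 ± 0.04, adjusted p = 8.82e-09, edgeR), and *GSH2*, the glutathione synthetase, had 218 to 234 CPM in jazD and 117 to 125 CPM in Col-0 (0.91 ± 0.04, adjusted p = 4.12e-13). Both were lower in jazD cdk8-1 than in jazD (-0.27 ± 0.04 and -0.52 ± 0.04), and the call of *GSH1* ended on the TPM scale (adjusted p = 0.0658, limma). Both genes of glutathione reductase, *GR1* and *GR2*, fell in jazD relative to Col-0 (-0.21 ± 0.05 and -0.14 ± 0.04), and *GR2* was not called without the second jazD or the first Col-0 library (adjusted p = 0.0632 and 0.0649).

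Of the 10 tested genes of glutathione and conjugate breakdown, 8 rose in jazD relative to Col-0 and none fell. Over all tested genes, 21.8% were called higher and 20.9% lower. Of the 8, *OXP1* and *PCS1* did not pass on the TPM scale (adjusted p = 0.0918 and 0.0899, limma). *GGT4*, the vacuolar gamma-glutamyl transpeptidase that acts on conjugates, had 44.5 to 52.6 CPM in jazD and 22.9 to 23.3 CPM in Col-0 (log2 fold change 1.04 ± 0.06, adjusted p = 9.97e-12, edgeR). *GGP1*, a cytosolic gamma-glutamyl peptidase, rose by 0.71 ± 0.04 (adjusted p = 8.49e-12) and *GGCT2;1*, a gamma-glutamyl cyclotransferase of low level, by 2.01 ± 0.28 (adjusted p = 6.47e-06). In jazD cdk8-1 against jazD, 5 of the 10 were lower and none higher, where 19.0% of all tested genes were lower and 16.9% higher. Of the 5, *GGP1*, *GGCT2;2* and *PCS1* did not pass on the TPM scale (adjusted p = 0.280, 0.436 and 0.117, limma). *GGT4* did not pass there, with 46.3 to 47.1 CPM in jazD cdk8-1 (-0.03 ± 0.06, adjusted p = 0.727, edgeR), while *GGCT2;1* fell by 1.54 ± 0.27 (adjusted p = 0.000102).

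The 7 transporters of glutathione and conjugates were divided in jazD against Col-0, with *CLT3* and *CLT1*, glutathione transporters of the plastid, higher (0.52 ± 0.08 and 0.36 ± 0.09 on the log2 scale), and the vacuolar conjugate pumps *ABCC2* and *ABCC1* lower (-0.32 ± 0.05 and -0.16 ± 0.06). The call of *ABCC1* ended without the first jazD library (adjusted p = 0.201, edgeR) or the first or the third Col-0 library (adjusted p = 0.107 and 0.123), and that of *CLT1* on the TPM scale without a filter (adjusted p = 0.0587, limma). The list for the ascorbate-glutathione cycle held ascorbate peroxidases and monodehydroascorbate reductases only, and no dehydroascorbate reductase. Of its 9 tested genes, 4 rose and 3 fell in jazD, where 21.8% of all tested genes were higher and 20.9% lower. *MDAR2*, a monodehydroascorbate reductase, had 237 to 249 CPM in jazD and 48.0 to 55.5 CPM in Col-0 (2.23 ± 0.05, adjusted p = 1.74e-18, edgeR), and fell to 63.2 to 69.8 CPM in jazD cdk8-1 (-1.85 ± 0.05 against jazD, adjusted p = 1.02e-16). *MDAR3* rose in jazD by 1.69 ± 0.23 (adjusted p = 2.97e-06) and fell in jazD cdk8-1 relative to jazD by 3.26 ± 0.27 (adjusted p = 4.45e-09). In that comparison 3 of the 9 were lower and 3 higher, against 19.0% and 16.9% of all tested genes. The higher ones were *SAPX* (0.21 ± 0.05), *MDAR6* (0.16 ± 0.04) and *MDAR4* (0.15 ± 0.04).

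The TGA factors *TGA2*, *TGA5* and *TGA6* and the partner *SCL14*, known as regulators of detoxification genes, did not pass between jazD and Col-0, with log2 fold changes from -0.07 to 0.15. *GRX480*, a glutaredoxin that binds TGA factors, had 1.25 to 2.41 CPM in jazD and 0.623 to 1.25 CPM in Col-0 (0.99 ± 0.36, adjusted p = 0.0290, edgeR), a call that ended without the second jazD library (0.70, adjusted p = 0.179) or the first or the second Col-0 library (adjusted p = 0.116 and 0.0873) and with DESeq2 (adjusted p = 0.0571). It fell to 0.223 to 0.695 CPM in jazD cdk8-1 (-2.05 ± 0.41 against jazD, adjusted p = 0.000435). Of 6 genes known to respond to oxylipins and xenobiotics, *OPR1* alone was called between jazD and Col-0 (0.55 ± 0.07, adjusted p = 1.35e-06, edgeR), where 42.8% of all tested genes were called. In jazD cdk8-1 against jazD 3 of the 6 were lower, against 19.0% of all tested genes, among them *NAC032* (-2.03 ± 0.38, adjusted p = 0.000230, edgeR).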

How the data were processed

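RNA was sequenced from 12 rosette libraries, 3 for each of 4 genotypes, from plants grown on soil at 20 °C with 16 h light and 8 h dark. Expected counts and TPM per locus were deposited by the authors, made with RSEM 1.2.25 on TAIR10 per the submitters' processing notes. The read length, strand protocol and aligner were not given in the sources used here. Of the deposited expected counts, 96.58% were whole (tolerance 1e-09), and all were rounded for testing. Genes were filtered with filterByExpr, which left 19059 of 33323 loci, scaled by TMM (factors 0.9543 to 1.0557) and fitted over the 4 genotypes with the quasi-likelihood test of edgeR 4.0.16 in R 4.3.3 (8 residual degrees of freedom, common biological coefficient of variation 5.07%). Standard errors were taken as the absolute log2 fold change over the root of F. Adjusted p-values are Benjamini-Hochberg over all tested genes, with a threshold of 0.05. CPM are scaled by TMM.

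The genes and lists were chosen with earlier results of these data known. Genes named in each comparison are up to 6 called rises and 6 falls whose mean log2 CPM reached 1, the called interactions with the smallest p, the 5 highest in Col-0 by TPM, and up to 4 genes per list. Genes of few counts are named besides, chosen after their values were seen. Alternatives were DESeq2 1.42.0 and its size factors, no filter, only the compared groups, a replicate block, each library left out, and limma 3.58.1 on log2(TPM + 1) or log2(TPM + 0.1), whose fold changes understate those of low genes. The edgeR fit was tested on simulated data for jazD against Col-0 only. The fit over the 4 genotypes, the interaction, DESeq2 and limma were not tested in this way. Intervals and limits of low counts cover counting error only. Promoters were read from TAIR10.1 (RefSeq), and all 52 genes matched it by locus. The rule also leaves out related loci whose annotation uses other words.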

Additional observations from a re-analysis of the deposited data

Results flagged for a closer look

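For 6 genes the effect of cdk8-1 in jazD differed from its effect with intact JAZ genes by the interaction test of edgeR, 3 libraries in each genotype. These are 16.2% of the 37 tested genes, where 16.5% of all tested genes were called, so the count is near that of all genes. The interaction was -0.98 on the log2 scale for AT4G19880, -0.76 for *GSTU13*, -0.63 for AT1G65820, -0.79 for *GSTF2*, 0.90 for AT5G12110 and 0.33 for *GSTU20*. AT4G19880 was lower in jazD cdk8-1 than in jazD and higher in cdk8-1 than in Col-0. AT5G12110 and *GSTU20* were lower in cdk8-1 than in Col-0 and did not pass between jazD cdk8-1 and jazD.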

How the results depend on the processing

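Over 20 alternatives, 14 of 19 called genes in jazD against Col-0 and 9 of 14 in cdk8-1 against Col-0 kept their call wherever they were tested. The same held for 14 of 21 in jazD cdk8-1 against jazD and 14 of 18 in jazD cdk8-1 against Col-0. It held for 5 of 6 interactions over 19 alternatives, and 0 calls were reversed. A gene that an alternative filtered out or left without an adjusted p was passed over there and not counted as a loss. With only the 2 groups compared, 11 were higher in jazD cdk8-1 than in Col-0 (13 in the main test). In that setting 12 were lower in jazD cdk8-1 than in jazD (13 in the main test), though no gene tested there lost its call. The TPM scale moved most counts. With TPM + 1, TPM + 0.1 and TPM + 1 without a filter, the glutathione S-transferase genes called lower in jazD than in Col-0 were 9, 9 and 8 (4 in the main test), and those called higher in jazD cdk8-1 than in jazD were 14, 14 and 13 (8 in the main test). In cdk8-1 against Col-0, 12 and 11 were higher with TPM + 1 and TPM + 0.1 (7 in the main test), and 4 were lower without a filter (7 in the main test). Over all genes, the same 3 settings called 3947, 3913 and 3667 higher in cdk8-1 than in Col-0 (2229 in the main test), with 1738 lower with TPM + 1 and 1688 without a filter (2624 in the main test). In jazD cdk8-1 against jazD they called 6475, 6499 and 6206 higher (3213 in the main test) and 2075, 2048 and 2117 lower (3612 in the main test). Negative interactions were 1056 with TPM + 0.1 and 968 without a filter (1599 in the main test). The cause was not tested. DESeq2 called 3 lower in jazD cdk8-1 than in Col-0 (5 in the main test). Leaving out each library gave 12 to 15 higher and 3 to 6 lower in jazD against Col-0, 5 to 7 higher and 5 to 7 lower in cdk8-1 against Col-0, 5 to 8 higher and 12 to 14 lower in jazD cdk8-1 against jazD, 11 to 13 higher and 3 to 5 lower in jazD cdk8-1 against Col-0, and 2 positive and 4 to 6 negative interactions. Without jazD cdk8-1 library 1, 5 were higher than in jazD, and without its library 3, 3 were lower than in Col-0. Same-numbered libraries did not deviate together (correlations from -0.058 to 0.051 in 18 pairs, and 2 of 12 libraries closest to their own number). This check cannot exclude that same-numbered pools were handled together, and the main test did not pair them. With the replicate block, 13 were higher and 4 lower in jazD against Col-0, 7 and 6 in cdk8-1 against Col-0, 8 and 13 in jazD cdk8-1 against jazD, 13 and 4 in jazD cdk8-1 against Col-0, and 2 and 6 interactions were positive and negative. Without a filter on low counts, edgeR called 17 higher and 4 lower in jazD against Col-0 and 9 higher and 17 lower in jazD cdk8-1 against jazD.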
